A study of Mus musculus with 22 samples.

Results

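Oligodendrocytes wrap axons in myelin, a stack of lipid-rich membrane held together by a small set of abundant proteins. They arise from dividing precursor cells that carry the PDGF receptor Pdgfra and the proteoglycan Cspg4. As precursors commit, the transcription factors Olig1, Olig2, Sox10 and Nkx2-2 drive the switch to myelin genes, and the factor MYRF joins Sox10 at many of these genes in mature cells. The 42 genes described here were taken by symbol from a fixed list: 29 mature myelin genes, from Mbp to Bcas1, and 13 precursor and early lineage genes, from Pdgfra to C1ql1. Of these, 41 were measured in at least 1 of 319 deposited 5'-end regions, out of 15297 genes in all, and together they held 1.03% of gene reads. No region carried the symbol C1ql1.

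All mice were males on a C57BL/6 background, between 16 and 20 weeks old, and the tissue was M1, the primary motor area of cortex. Wild-type (WT) mice were compared with BERKO mice, whose labelled genotype is ERb-/-, a loss of estrogen receptor beta, the product of Esr2. A left and a right biopsy, each a needle puncture, came from 6 WT mice (numbers 1 to 6) and 5 BERKO mice (numbers 2 to 6), 22 biopsies in all. From each biopsy 10 ng of RNA entered STRT, which tags the 5' ends of transcripts, so levels were not divided by length. Of the reads in 148 regions that hold nearly all member reads, 89.5% lay in 5' UTR or upstream regions and the rest inside genes. Levels are CPM, counts scaled to a common total of gene reads per library. In bulk tissue, fewer cells of a type and less RNA per cell cannot be told apart.

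Total reads per biopsy ran from 249751 to 2018833, and gene reads per mouse had a median of 2019461 in WT and 1338981 in BERKO. Esr2 gave 3 reads in all WT mice together and 10 in all BERKO mice, so it could not check the genotype labels at this depth. By the well codes in the column names, rows of the plate held biopsies of 1 genotype and 1 side each, so row cannot be told apart from either. All 10 neuron markers, all 10 astrocyte markers and 8 of 10 microglia markers were detected in every biopsy, as were 19 of the 29 mature and 3 of the 13 precursor genes. In 3 WT libraries, the right and left biopsies of WT mouse 1 and the left biopsy of WT mouse 2, the summed level of upper layer neuron markers (Cux1, Rorb, Mef2c and others) was 354, 395 and 1032 CPM, against 1673 to 3394 CPM in the other 19. Of the 9 upper layer markers with reads, 2 were at 0 in all 3 of these libraries. Their general neuron markers summed to 6673 to 8063 CPM, against 8597 to 14012 CPM elsewhere. The main results are given with and without these 3 libraries. Leaving them out removes WT mouse 1 and keeps only the right biopsy of WT mouse 2.

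The summed level of mature myelin genes varied several-fold from biopsy to biopsy, and that of precursor genes varied less. The 29 mature genes summed to a median of 10023 CPM over the 22 biopsies, with a lowest value of 2950 CPM in the right biopsy of WT mouse 1 and a highest of 24314 CPM in the left biopsy of BERKO mouse 2, an 8.24-fold range. Without Mbp the mature sum had a median of 5581 CPM and ranged 7.63-fold. The measured precursor genes, 12 in number, summed to a median of 391 CPM and ranged 2.60-fold, from 243 to 632 CPM. Ptprz1 and Olig1 held most of the precursor reads, at 2998 and 2616, and no other precursor gene had more than 444. The precursor sum therefore mostly gives the level of these genes. The 3 libraries with few upper layer markers had the 3 lowest mature sums, at 2950, 3952 and 3791 CPM, but precursor sums of 378, 330 and 508 CPM, inside the range of the others. Without them the mature sum still ranged 4.02-fold, from 6050 to 24314 CPM, with an SD of 0.50 on the log2 scale, against 0.36 for the precursor sum. The mature sum was 24.0 times the precursor sum at the median, and only 7.81, 12.0 and 7.46 times in those 3 libraries.

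**Figure D1:**
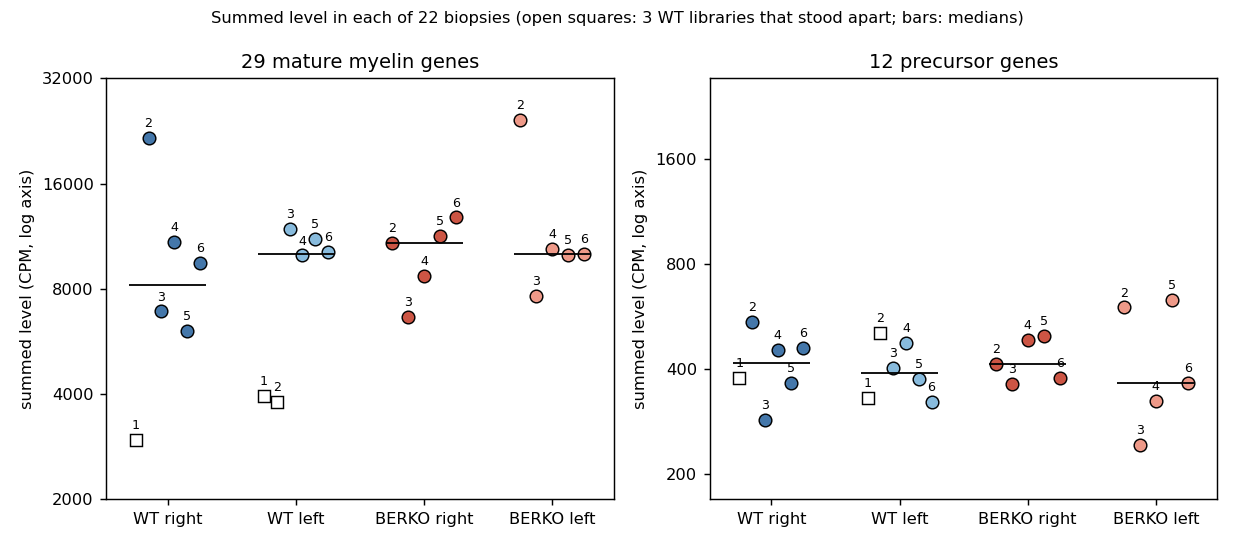
Each point is 1 biopsy, labelled with its mouse number; the vertical axes give the summed level in CPM on log axes of equal span, for 29 mature genes at left and 12 precursor genes at right, with a bar at each group's median. The 3 open squares, WT libraries that stood apart, are lowest in the mature panel (2950 to 3952 CPM) and inside the range of the others in the precursor panel.

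High mature sums came from 1 side of 2 mice. In WT mouse 2 the right biopsy stood at 21621 CPM and the left, one of the 3 libraries above, at 3791 CPM. In BERKO mouse 2 the left biopsy stood at 24314 CPM and the right at 10821 CPM. The precursor sums of these same 4 biopsies were 547, 508, 601 and 414 CPM. In the other 9 mice the 2 sides differed by at most 0.87 on the log2 scale in the mature sum. In the high biopsies, upper layer markers were at 1673 CPM (WT) and 1919 CPM (BERKO), the lowest and the next lowest of the 19 remaining biopsies. Deep layer and layer 6b markers were at 201 and 158 CPM there, within the 89.3 to 285 CPM of the 19. The part of these marker levels in the member values was not tested.

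Summed over both sides, WT mouse 1 was the lowest of 11 mice for 22 of the 27 mature genes with enough reads to test. BERKO mouse 2 was the highest for 12 of them and WT mouse 2 for 9. Among the 11 precursor genes tested, WT mouse 1 was lowest for 2 and BERKO mouse 2 highest for 4. Per mouse, the SD of log2 CPM had a median of 0.77 over the 19 mature genes with at least 100 reads per mouse, against 0.31 over all 3016 genes of that depth. The 2 precursor genes of that depth, Olig1 and Ptprz1, had a median of 0.37. Over all 11 precursor genes tested, most of them with few reads, it was 1.14, against 0.81 over all 27 mature genes tested.

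**Figure D2:**
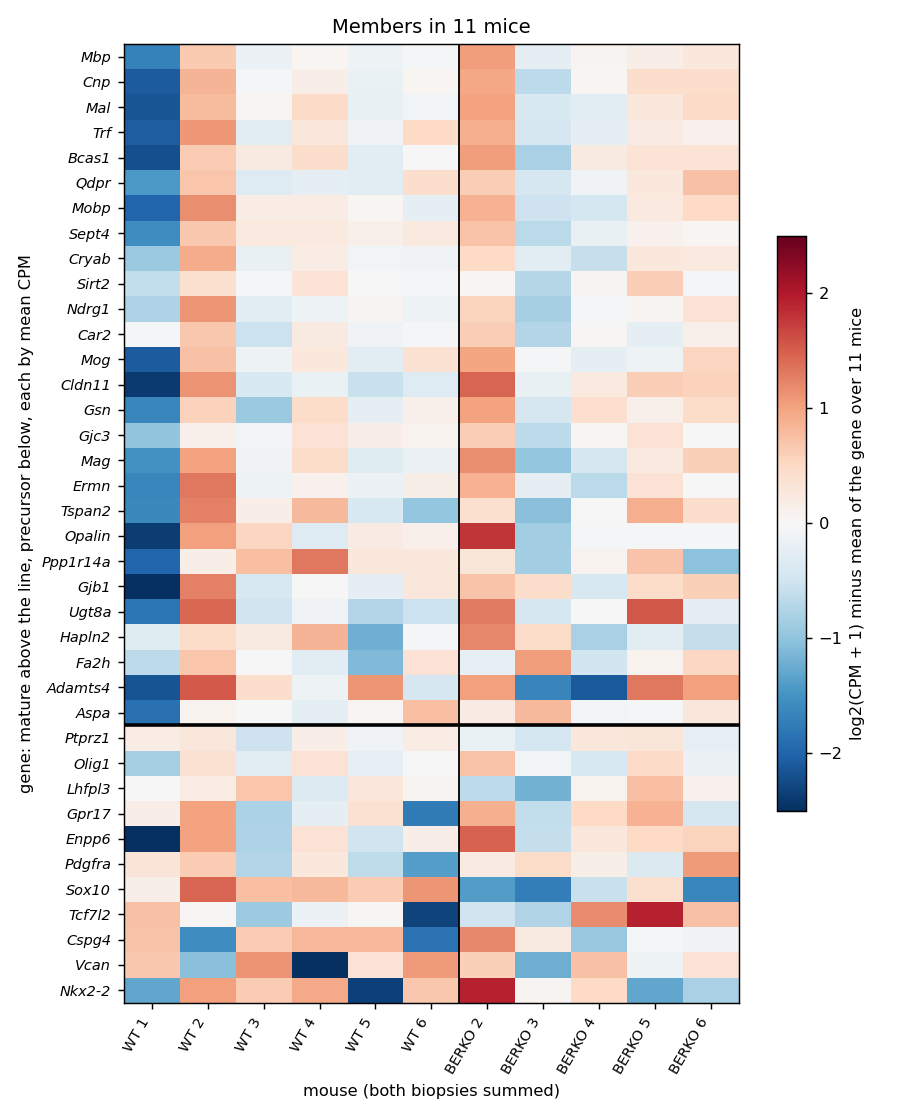
Rows are the 38 genes tested, mature above the line and precursor below, each ordered by mean level; columns are 11 mice with both biopsies summed, and colour gives log2(CPM + 1) minus the gene's mean over the mice. WT mouse 1 is blue through nearly the whole mature block, WT mouse 2 and BERKO mouse 2 are red there, and in the precursor block Enpp6 follows this pattern while Ptprz1 stays near white in every mouse.

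Mbp encodes myelin basic protein, which glues the inner faces of the myelin membrane together, and was by far the most abundant member. It stood at 1320, 6641, 3840, 4416, 3872 and 4115 CPM in WT mice 1 to 6 and at 8772, 3576, 4467, 4736 and 5066 CPM in BERKO mice 2 to 6. One WT mouse was low, 1 BERKO mouse was high, and the groups overlapped through the rest. Its change was 0.40 ± 0.37 (log2, SE; edgeR adjusted p = 0.774), and 0.08 ± 0.33 without the 3 libraries (edgeR adjusted p = 0.977).

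The next most abundant were Cnp, a myelin phosphodiesterase, Mal, a raft protein of compact myelin, and Trf, the iron carrier transferrin that oligodendrocytes make in large amounts. Cnp stood at 142, 1080, 583, 675, 536 and 622 CPM in WT and at 1179, 382, 622, 812 and 820 CPM in BERKO. Mal stood at 128, 991, 586, 788, 502 and 546 CPM in WT and at 1149, 437, 466, 681 and 792 CPM in BERKO. Trf stood at 129, 1137, 443, 651, 506 and 765 CPM in WT and at 1018, 401, 462, 620 and 576 CPM in BERKO. All of these followed the order of Mbp at the extremes, with WT mouse 1 lowest and mouse 2 of either genotype highest. Their changes were 0.33 ± 0.45 for Cnp, 0.26 ± 0.46 for Mal and 0.03 ± 0.47 for Trf (log2, SE), with edgeR adjusted p of 0.864, 0.895 and 0.992. Without the 3 libraries each value was below 0, at -0.03, -0.11 and -0.36, and none was called.

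Cldn11, the tight junction protein of the myelin sheath, had the smallest p of the mature genes. Its levels were 21.8, 260, 90.6, 105, 80.3 and 95.1 CPM in WT and 328, 104, 142, 183 and 177 CPM in BERKO. Apart from WT mouse 2, only WT mouse 4 reached the lowest BERKO value. The change was 0.78 ± 0.53 (log2, SE; edgeR adjusted p = 0.653), and 0.39 ± 0.51 without the 3 libraries. Ugt8a, which makes the myelin lipid galactosylceramide, was at 4.57, 51.5, 12.7, 17.4, 10.8 and 12.5 CPM in WT and at 46.5, 13.6, 18.4, 55.8 and 15.7 CPM in BERKO. Its change was 0.71 ± 0.52 (edgeR adjusted p = 0.668), and 0.24 ± 0.56 without the 3 libraries. Gsn, the actin-severing protein gelsolin, was at 37.6, 177, 62.1, 164, 102 and 129 CPM in WT and at 241, 87.9, 159, 130 and 164 CPM in BERKO, a change of 0.49 ± 0.39 (edgeR adjusted p = 0.708), and 0.22 ± 0.32 without the 3 libraries.

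The remaining mature genes with at least 20 reads per mouse had changes between -0.45 for Ppp1r14a and 0.35 for the connexin Gjb1. Qdpr (0.33), Bcas1 (0.31), Opalin (0.31), Mog (0.28), Mag (0.23), the connexin Gjc3 (0.12), Mobp (0.08), Hapln2 (0.07), Tspan2 (0.07) and the deacetylase Sirt2 (0.01) lay at or above 0 on the log2 scale. Cryab (-0.004), Ndrg1 (-0.01), Ermn (-0.02), Car2 (-0.04) and Sept4 (-0.07) lay below. Of the 24 mature genes of that depth, 0 moved by more than 2 SE with all libraries. Without the 3 libraries Ppp1r14a was at -0.75 ± 0.34 (unadjusted p = 0.0345, edgeR adjusted p = 0.595). Aspa, Fa2h, Adamts4, Nkx6-2 and Evi2a had fewer than 20 reads per mouse.

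Some promoters are shown because the mature genes varied together from mouse to mouse, with matches to the cores of their known regulators marked. The RefSeq promoter table (GRCm38.p6, another build than the mm9 positions of the regions, so the 2 were not overlaid) held 28 members in 37 windows of 300 bases, from 250 before to 50 after the start. The core read by MYRF was searched as CTGGCAC and CTGGTAC, the SOX core as ACAAAG and ACAAT, an E-box as CAGCTG and a TATA box as TATAAA, on both strands. Either MYRF core was in the windows of 5 of 19 mature genes (26.3%), namely Cnp, Mag, Mog, Hapln2 and Opalin, and of 0 of 9 precursor genes. Over all 32851 windows the share was 7.10%, and over all 27025 genes 8.10%. Both windows of Mag hold the same copy. The lines below give the 160 bases before the start, 5' to 3' on the gene's strand, with every match in capitals.
Cnp: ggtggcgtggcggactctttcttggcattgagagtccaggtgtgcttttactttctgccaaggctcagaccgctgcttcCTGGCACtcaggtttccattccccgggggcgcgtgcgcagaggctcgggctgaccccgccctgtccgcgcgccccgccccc
Mag: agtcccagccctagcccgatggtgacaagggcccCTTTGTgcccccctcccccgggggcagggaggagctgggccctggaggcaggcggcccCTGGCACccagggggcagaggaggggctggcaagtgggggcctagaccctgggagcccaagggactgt
Mog: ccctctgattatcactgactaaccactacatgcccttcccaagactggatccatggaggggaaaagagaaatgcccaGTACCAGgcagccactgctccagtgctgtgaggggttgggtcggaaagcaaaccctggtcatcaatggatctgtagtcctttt
Mobp: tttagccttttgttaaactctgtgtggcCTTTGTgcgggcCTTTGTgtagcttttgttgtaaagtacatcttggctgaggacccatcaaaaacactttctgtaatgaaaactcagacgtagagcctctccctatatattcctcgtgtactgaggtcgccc
Ptprz1: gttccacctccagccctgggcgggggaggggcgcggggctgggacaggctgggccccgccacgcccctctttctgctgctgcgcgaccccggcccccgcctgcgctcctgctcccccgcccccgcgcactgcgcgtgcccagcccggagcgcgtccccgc

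These lie at chr11:100574779-100574938 (Cnp, plus strand), chr7:30914864-30915023 (Mag, minus), chr17:37023399-37023558 (Mog, minus), chr9:120149582-120149741 (Mobp, plus) and chr6:22875342-22875501 (Ptprz1, plus). In Cnp, Mag and Mog the MYRF core begins 81, 68 and 83 bases before the start, in Mog on the opposite strand. Mobp carries the SOX core in a tandem pair, on the opposite strand, while Ptprz1, a precursor gene, has no match in these 160 bases. Of mature genes not shown, Mal, Ugt8a, Cldn11 and Ermn also have no match there, while Opalin and Hapln2 do. Of precursor genes not shown, Olig2 has a SOX core and a TATA box and Pdgfra has no match. The SOX core ACAAAG was in 29.6% of the 27 mature windows, against 18.7% of all windows, the core ACAAT in 25.9% against 31.0%, the E-box in 18.5% against 16.3% and the TATA box in 7.41% against 13.6%. In the 10 precursor windows the shares were 10% for ACAAAG, 50% for ACAAT, 10% for the E-box and 20% for the TATA box. The estrogen response element, searched as GGTCANNNTGACC, was in 0 member windows and in 0.07% of all windows. A match is a description of letters and not a site.

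Most mature genes followed Mbp from mouse to mouse, while r with all 11 mice was near 0 for most precursor genes. Pearson's r with Mbp over 11 mice, on log2 CPM, had a median of 0.90 over 26 mature genes and 0.91 over the 18 of at least 100 reads per mouse, against 0.06 over all 3015 genes of that depth. An r above 0.8 was reached by 17 of 26 mature genes, 2 of 11 precursor genes and 1.57% of all 9024 genes compared. For Cnp, r was 0.98 and Spearman's rho 0.96 (permutation p = 1e-05, the smallest that 100000 permutations can give, and 5e-05; adjusted over all genes 0.0129 and 0.100). For Cldn11, r was 0.97 and rho 0.93 (permutation p = 1e-05 and 0.00017; adjusted 0.0129 and 0.128). With p adjusted over all 9024 genes, r passed for 6 mature genes and 1 precursor gene, against 0.211% of all genes, while rho passed for none. A gene alone at the smallest p of these permutations could not pass this adjustment, so a failure to pass says little.

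Leaving out the 2 mice farthest from the median of Mbp, WT mouse 1 and BERKO mouse 2, lowered the median r of the mature genes to 0.76, against 0.01 over all genes. Over the 9 mice left no member and no other gene passed the adjustment over all genes, with r of 0.93 for Cnp and 0.91 for Cldn11. The limit set by the smallest permutation p held here too. The median of the precursor genes rose from -0.05 to 0.38, with Ptprz1 at 0.58, Gpr17 at 0.56 and Pdgfra at 0.50. Within the 6 WT mice the median was 0.94 for the mature genes and 0.06 for the precursor genes. Without the 3 libraries these medians were 0.82 and 0.18. Car2, a carbonic anhydrase, had an r of 0.51 with all mice and 0.86 without the 2 farthest. The lowest values among mature genes were those of Fa2h (0.31) and Hapln2 (0.38), which have few reads.

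Enpp6, an enzyme of newly forming oligodendrocytes, was the precursor-list gene closest to Mbp, with r of 0.97 and rho of 0.98 (permutation p = 1e-05 and 2e-05; adjusted over all genes 0.0129 and 0.0902). Olig1, which stays on in mature cells, followed at 0.83. Pdgfra (0.09), Ptprz1 (-0.05), Lhfpl3 (-0.08), Tcf7l2 (-0.09), Sox10 (-0.12), Vcan (-0.14) and Cspg4 (-0.17) lay near 0, and Gpr17 and Nkx2-2 at 0.28 and 0.52. Reads were few for most of these: only Olig1 and Ptprz1 had 100 or more per mouse. A weak r of the others cannot be read as independence. Sox10, whose level was lower in most BERKO mice, had an r of 0.91 within WT and -0.10 within BERKO. Its r over all mice pools both genotypes and does not describe WT alone.

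**Figure D3:**
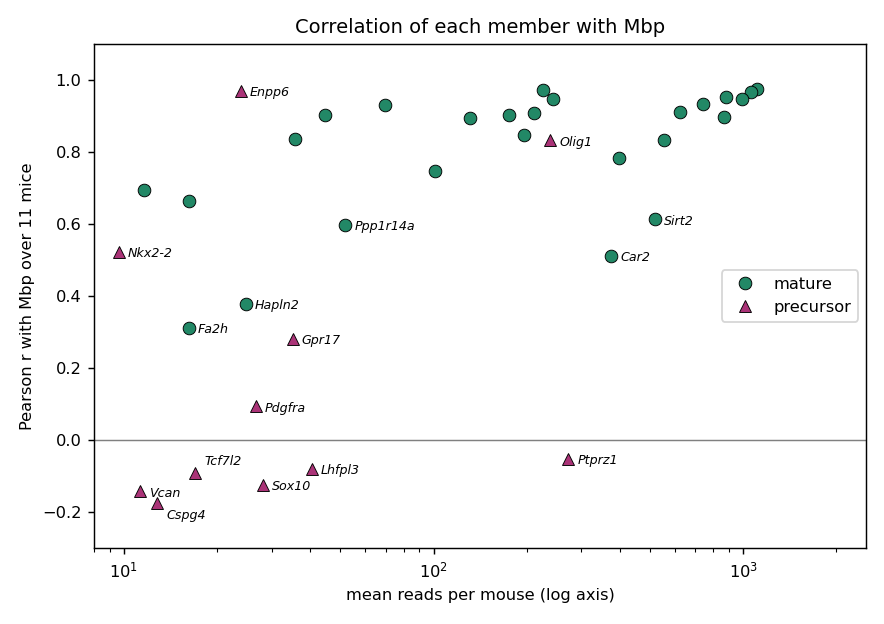
Each point is a member, with its mean reads per mouse on a log axis and its Pearson r with Mbp over 11 mice on the vertical axis. Of the mature genes (circles) 17 of 26 lie above 0.8 and the lowest are named; of the precursor genes (triangles, all named) Enpp6 at 0.97 and Olig1 at 0.83 lie highest.

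Outside the list, the 6 genes whose level over the 22 biopsies was most like the summed mature level, of 5419 genes compared, were Plekhb1 (r = 0.94), Dbndd2 (0.89), Rcan2 (0.89), Apod (0.89), Enpp2 (0.89) and Gatm (0.88). Over the 19 biopsies without the 3 libraries the same genes had r of 0.92, 0.83, 0.80, 0.76, 0.74 and 0.80. These are values of the same libraries, with left and right of a mouse both counted, and are given without a test.

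Mbp is read mainly from 2 start regions, and in 3 libraries only the classic start was low. The classic start, in the 5' UTR at chr18:82723925 (mm9, plus strand), held 96.3% of its reads. The upstream start at chr18:82644612, from which the longer Golli transcripts of the locus begin, held 3.02%. Golli proteins are also made outside myelin, in neurons and precursors among other cells. Over the 22 biopsies the classic start ranged from 976 to 10720 CPM and the upstream start from 22.4 to 212 CPM. In the 3 libraries that stood apart, the classic start was at 976, 1583 and 1672 CPM, the 3 lowest values. Their upstream start was at 190, 212 and 188 CPM, the 3 highest. The left biopsies of BERKO mice 3 and 6 were close to these, at 187 and 179 CPM. The upstream share of the reads of both starts was 16.3%, 11.8% and 10.1% in the 3 libraries, against 0.47% to 5.46% in the other 19, so the ranges did not overlap. Both libraries of WT mouse 1 and the left library of mouse 2 were therefore low in the myelin start and not in the other.

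**Figure D4:**
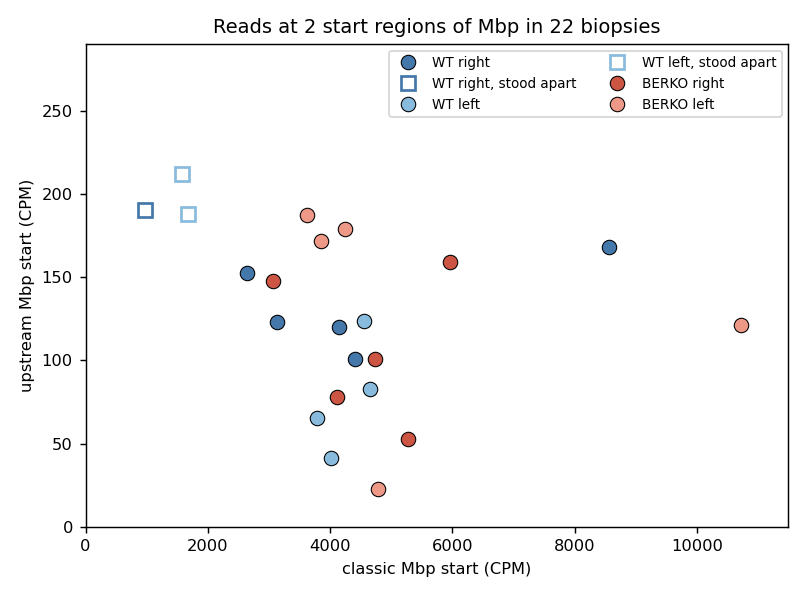
Each point is 1 biopsy, with the CPM of the classic Mbp start on the horizontal axis and of the upstream start on the vertical axis. The 3 open squares, WT libraries that stood apart, sit at the upper left, at 976 to 1672 CPM for the classic start and 188 to 212 CPM for the upstream start.

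Cnp, Gsn and Sept4 also have a second start. Cnp is read from chr11:100436286 (5' UTR, 53.5% of its reads) and chr11:100437124 (39.1%), both on the plus strand of mm9, and both followed the mouse order: in WT mouse 1 they stood at 98.1 and 32.0 CPM, and in BERKO mouse 2 at 614 and 484 CPM. The second start held 24.6% of the reads of both in WT mouse 1 and 32.9% to 51.6% in the other mice. Gsn is read from chr2:35137955 (68.2%) and chr2:35111942 (17.9%). The first ranged from 19.3 CPM in WT mouse 1 to 170 CPM in BERKO mouse 2, and the other from 7.36 to 34.5 CPM, with WT mouse 1 at 14.8 CPM. Its second start held 43.3% of the reads of both in WT mouse 1 and 6.42% to 46.8% in the other mice. The second start of Sept4, at chr11:87394562, held 1.38% in WT mouse 1, the lowest share, and 3.43% to 15.8% in the other mice. In WT mouse 1 this start stood at 1.41 CPM, so its share there rests on few reads.

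At the level of deposited regions, 64 regions of members were tested and 0 were called, against 15 of 13128 regions in all (0.114%; edgeR). DESeq2 was run on a wider set, with a p for 271 member regions. It called 0 of these, and 96 of the 5779 regions in all that kept an adjusted p. How many of the 271 kept one was not counted. In edgeR 11.6% of all regions and 1 of the 64 had an unadjusted p under 0.05, in the members a coding region of Qdpr (0.97 ± 0.45, edgeR adjusted p = 0.408). Of the 28 regions at starts of mature genes, 18 had a positive change, with a median of 0.11, and of the 27 inside mature genes 19, with a median of 0.37.

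In the comparison of BERKO with WT per mouse, edgeR with its default filter called 0 of 38 members, against 7 of 9025 genes in all (0.0776%). An unadjusted p under 0.05 was given to 1 member, Sox10, which is 2.63% of them, against 9.92% of all genes. DESeq2 called 34 of the 6725 genes it kept, of which 1 was a member, Sox10. The ranges of the 2 genotypes overlapped for every member tested, while 1.32% of all genes tested had ranges that did not overlap. Of 27 mature genes 21 had a positive change, with a median of 0.23 on the log2 scale, and of 11 precursor genes 6, with a median of 0.22. The median over all genes was -0.01, and 49.2% were positive. Without the 3 WT libraries only 6 of 26 mature genes had a positive change, with a median of -0.13, and 6 of 8 precursor genes, with a median of 0.14. WT mouse 1 was then absent, and WT mouse 2 was counted by its right biopsy alone, at 21621 CPM in the mature sum. Then 3 of 34 members, Sox10, Tcf7l2 and Ppp1r14a, had an unadjusted p under 0.05, against 7.93% of all genes, and 0 were called. Leaving out WT mouse 1 alone brought the mature median to 0.04, and leaving out BERKO mouse 2 alone brought it to 0.01. Leaving out WT mouse 2 alone brought it to 0.43, with 26 of 27 mature genes positive. Neuron, astrocyte, microglia, endothelial and meningeal fibroblast markers had positive medians in the same comparison (0.27, 0.27, 0.36, 0.43 and 0.49), with 0 called, and 0.20, 0.25, 0.20, 0.25 and 0.35 without the 3 libraries, and their part in the member values was not tested.

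**Figure D5:**
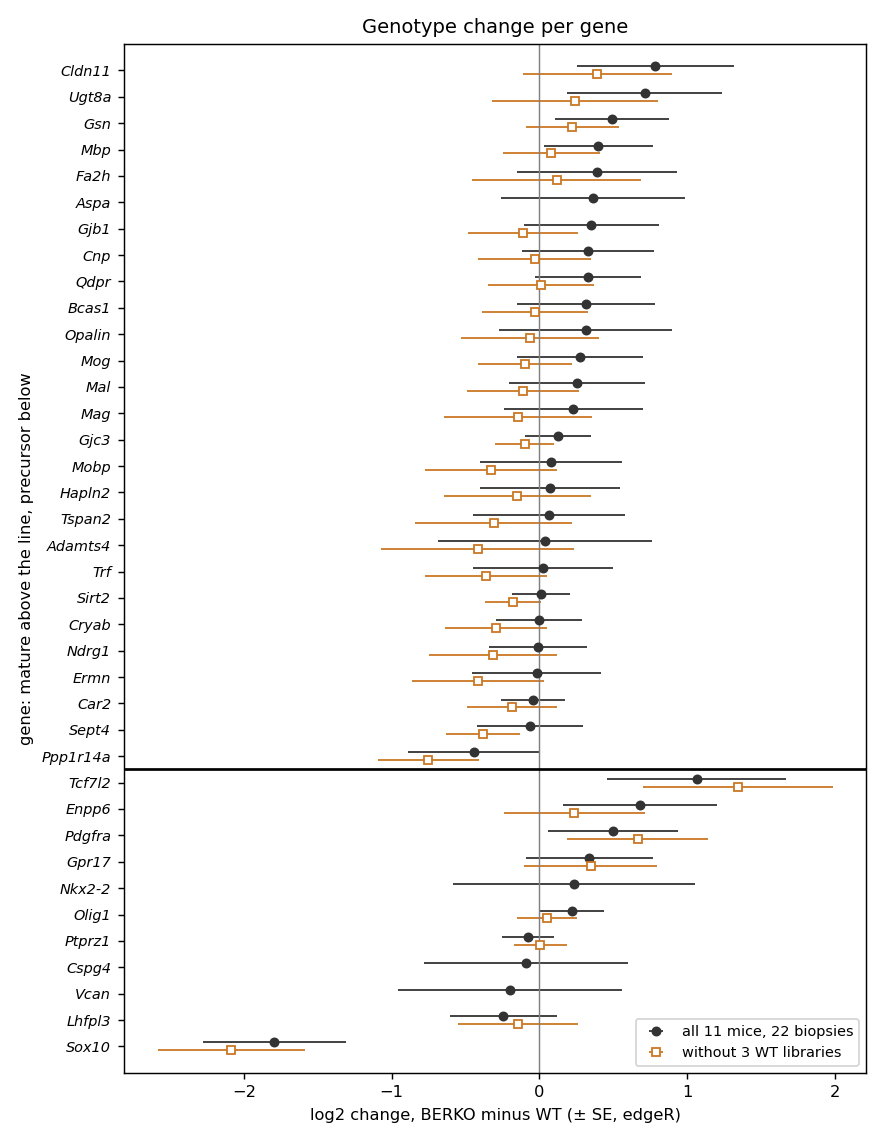
Each row is a gene, with its log2 change from WT to BERKO per mouse and SE (edgeR), for all biopsies (filled circles) and leaving out 3 WT libraries (open squares, absent where the gene was then too low to test). In the mature block the squares lie left of the circles and most fall below 0, while Sox10 is at -1.79 with all libraries and -2.09 without the 3.

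Sox10, the transcription factor that marks the whole lineage and binds myelin genes, had the smallest p of the members. It stood at 13.0, 34.1, 20.6, 21.2, 18.8 and 26.5 CPM in WT and at 3.81, 2.86, 7.66, 15.8 and 3.14 CPM in BERKO. Only BERKO mouse 5, whose left library has 1 lane in place of 3, overlapped the WT range. The change was -1.79 ± 0.48 (log2, SE), with an unadjusted p of 0.000976 and an edgeR adjusted p of 0.179, so it was not called. DESeq2 gave -1.80 with an adjusted p of 0.0497. Without the 3 libraries the value was -2.09 ± 0.50 (edgeR adjusted p = 0.100), and with all mice thinned to equal depth -1.42 ± 0.53 (edgeR adjusted p = 0.347). The value rests on 271 reads in WT and 39 in BERKO. Its reads were spread over 8 regions of the gene, on chromosome 15, and the 5' UTR region at chr15:78994917 (mm9, minus strand) held 30.6% of them, 84 reads in WT and 11 in BERKO. The 3' UTR region held 58 reads, 49 in WT and 9 in BERKO. Counted over 5' UTR and upstream regions alone, Sox10 was too low to be tested.

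No other precursor gene had an unadjusted p under 0.05 with all libraries. Tcf7l2, a factor of newly forming oligodendrocytes, was at 13.7, 8.10, 3.78, 7.07, 8.07 and 0.78 CPM in WT and at 5.33, 4.29, 19.1, 32.6 and 13.8 CPM in BERKO, a change of 1.07 ± 0.61 (log2, SE; edgeR adjusted p = 0.561). Without the 3 libraries it was 1.34 ± 0.64, with an unadjusted p of 0.0444 and an edgeR adjusted p of 0.612. Enpp6 was at 1.41, 26.0, 6.87, 16.3, 8.52 and 14.0 CPM in WT and at 36.6, 7.86, 15.3, 17.9 and 18.8 CPM in BERKO, a change of 0.68 ± 0.52 (edgeR adjusted p = 0.680), and 0.24 ± 0.47 without the 3 libraries. Pdgfra was at 17.6, 22.0, 7.90, 16.9, 8.52 and 4.68 CPM in WT and at 16.0, 19.3, 15.3, 10.5 and 30.1 CPM in BERKO, a change of 0.50 ± 0.44 (edgeR adjusted p = 0.744). Each of these had wide overlap between genotypes.

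The deepest precursor-list genes were Ptprz1 and Olig1. Ptprz1, a receptor phosphatase of precursors that astrocytes also make, was at 177, 188, 108, 175, 145 and 176 CPM in WT and at 138, 114, 188, 191 and 135 CPM in BERKO. Its 1.76-fold range over 11 mice was the narrowest of the 31 members with at least 20 reads per mouse. Its change was -0.08 ± 0.18 (log2, SE; edgeR adjusted p = 0.914). Olig1 was at 77.0, 178, 113, 178, 118 and 136 CPM in WT and at 225, 131, 106, 190 and 124 CPM in BERKO, with a change of 0.22 ± 0.22 (edgeR adjusted p = 0.782).

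Lhfpl3 was at 21.1, 23.7, 34.3, 16.3, 25.6 and 21.8 CPM in WT and at 12.9, 8.57, 22.2, 35.8 and 22.6 CPM in BERKO, with a change of -0.24 ± 0.36 (edgeR adjusted p = 0.868). Gpr17, a receptor of committed precursors, was at 20.4, 37.0, 9.96, 15.2, 23.8 and 4.68 CPM in WT and at 34.3, 11.4, 26.0, 33.7 and 13.2 CPM in BERKO, with a change of 0.34 ± 0.43 (edgeR adjusted p = 0.847). Cspg4, Olig2, Vcan, Nkx2-2 and C1ql1, like Tcf7l2, had fewer than 20 reads per mouse.

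Each side was compared alone as well. In right biopsies edgeR called 0 of 33 members, against 5 of 7696 genes (0.065%). Sox10 was the 1 member with an unadjusted p under 0.05 (-1.96 ± 0.57, edgeR adjusted p = 0.320; all genes 8.25%). Of 25 mature genes 11 had a positive change, with a median of -0.06; without WT mouse 1 it was 5 of 25 (median -0.24) and without WT mouse 2 it was 22 of 23 (median 0.43). In left biopsies edgeR called 0 of 26 members and 0 of 6616 genes (0%), and 3 members had an unadjusted p under 0.05, which is 11.5% of them, against 6.76% of all genes. These were Cldn11 (1.30 ± 0.42), Gjb1 (1.63 ± 0.62) and Gsn (0.64 ± 0.30), with edgeR adjusted p of 0.618, 0.658 and 0.711. With no filter on low counts edgeR called 22 of 13367 genes on the left, of which 1 was a member, Cldn11 (1.26 ± 0.27, adjusted p = 0.0054). DESeq2 called 0 members on either side, among 12 of 13469 genes called on the right and 3 of 10237 on the left. Of 22 mature genes 21 had a positive change on the left, with a median of 0.45, and 12 of 22, with a median of 0.01, without BERKO mouse 2. Without that mouse 0 members had an unadjusted p under 0.05. Without the left biopsies of WT mice 1 and 2 the values were 1.08 ± 0.44 for Cldn11, 1.24 ± 0.57 for Gjb1 and 0.43 ± 0.30 for Gsn. The edgeR adjusted p was 0.998 for each. In that fit 14 of 23 mature genes had a positive change, with a median of 0.17. The difference between the sides was itself tested: the interaction of genotype and side called 0 of 40 members and 0 of 10016 genes (0%; edgeR), with 0 members and 3.15% of all genes at an unadjusted p under 0.05, and DESeq2 also called 0. Of 28 mature genes 18 had a positive interaction, and 8 without WT mouse 2.

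No member was called for side. With the mouse as a block, edgeR called 0 of 40 members and 0 of 10016 genes (0%), and DESeq2 0 members and 23 of the 1528 genes it kept. The 1 member with an unadjusted p under 0.05 was Gpr17, lower on the left by -1.12 ± 0.51 (log2, SE; edgeR adjusted p = 0.828), which is 2.5% of members, against 5.41% of all genes. The mature sum was higher on the left in 7 of 11 mice. Of 28 mature genes 17 had a higher level on the left, with a median of 0.05, against -0.06 over all genes. Without BERKO mouse 2 it was 8 of 28, and without WT mouse 2 it was 24 of 28. Without WT mice 1 and 2 it was 23 of 28, with a median of 0.26, and 4 mature genes had an unadjusted p under 0.05: Bcas1 (0.56 ± 0.18), Qdpr (0.41 ± 0.15), Gsn (0.47 ± 0.19) and Opalin (0.74 ± 0.33), with edgeR adjusted p of 0.538 to 0.760. Gpr17 was there too (-1.41 ± 0.62, edgeR adjusted p = 0.745), so that 5 of 40 members stood under 0.05, against 5.90% of all 9635 genes. In that fit astrocyte markers were higher on the left in 9 of 10 genes (median 0.46), meningeal fibroblast markers in 8 of 8 (0.61), endothelial markers in 7 of 8 (0.55) and neuron markers in 1 of 10 (-0.24). Their part in the member values was not tested.

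Related gene lists were read in the same way. Of 34 other mature oligodendrocyte genes tested per mouse, 22 had a positive change, with a median of 0.20, and 0 were called; without the 3 libraries it was 14 of 33, with a median of -0.05. The smallest p there was that of Efnb3, an ephrin, at 32.8 ± 24.6 CPM in WT (SD, n = 6) and 9.76 ± 5.53 CPM in BERKO (SD, n = 5), a change of -1.75 ± 0.46 (log2, SE; edgeR adjusted p = 0.179). Without the 3 libraries Efnb3 was at -1.21 ± 0.46 (edgeR adjusted p = 0.480). Scd2, a fatty acid desaturase, followed at 0.31 ± 0.14 (edgeR adjusted p = 0.468). Apod, of the same list, was the 1 gene of these lists called for side once WT mice 1 and 2 were left out, at 0.72 ± 0.14 higher on the left (log2, SE; edgeR adjusted p = 0.0334).

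Of 17 oligodendrocyte transcription factors outside the member list, 12 had a positive change per mouse and 0 were called. Without the 3 libraries it was 11 of 16. Nfix (0.42 ± 0.15) and Sox4 (1.34 ± 0.49) had the smallest p, with edgeR adjusted p of 0.33 and 0.360. Of 21 genes of myelin lipid synthesis 12 were positive, with a median of 0.06 and 0 called. Without the 3 libraries it was 9 of 21, with a median of -0.03. Besides Scd2, the smallest p was that of Fdps, an enzyme of the sterol pathway (-0.34 ± 0.16, edgeR adjusted p = 0.505).

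Of 21 genes of axon-glia contact and the node 14 were positive, with a median of 0.16 and 0 called. Without the 3 libraries it was 11 of 21, with a median of 0.11. Dlg4, a postsynaptic scaffold also present at the juxtaparanode, was at 0.63 ± 0.22 (edgeR adjusted p = 0.33) and the adhesion protein Cadm4 at 0.77 ± 0.32 (edgeR adjusted p = 0.429). Of 10 genes of precursor growth signals 3 were positive, with a median of -0.08 and 0 called. Without the 3 libraries it was 5 of 10, with a median of -0.07. The thyroid hormone receptor Thra (0.58 ± 0.24, edgeR adjusted p = 0.429) and the receptor Fgfr2 (-0.59 ± 0.54, edgeR adjusted p = 0.757) had the smallest p. Without the 3 libraries Thra was at 0.92 ± 0.23 (edgeR adjusted p = 0.112) and Fgfr2 at -0.81 ± 0.54 (edgeR adjusted p = 0.760).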

How the data were processed

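RNA 5' ends were counted by STRT in 22 M1 biopsies. The deposited files give whole-number counts for each 5'-end region, the authors' ratio of each count to spike-in reads, and an annotation. The submitters' processing notes name mm9, Bowtie and TopHat2 2.0.12. The sources used here do not say how regions were drawn.

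Column names carry side and genotype, and their last digit was read as the mouse. Lanes were summed, and regions with a single symbol were summed to 15297 genes, which hold 95.1% of endogenous reads. Spike-in and ribosomal regions were left out. Counts are reads after PCR, not molecules. The lowest TMM factor per mouse was 0.948 and the highest 1.09.

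The mouse was the replicate, by its label. Tests used edgeR 4.0.16 (quasi-likelihood, robust, TMM, default filter, two-sided, Benjamini-Hochberg over all genes tested, threshold 0.05) in R 4.3.3, with limma 3.58.1 and DESeq2 1.42.0 as alternatives. The edgeR fits were also run on simulated counts with the same dispersion for every gene. Those runs do not give the power for genes as variable as the mature genes. SE was derived from the log2 change and its F statistic. Left and right were paired by the mouse of the labels, as a block. CPM levels are after TMM, except that of the region shared by Evi2a and Gm21975, and correlations used log2 CPM with a prior count of 1. Scaling to spike-in reads, for which the deposited ratio gives the basis, was an alternative. It moved the median change of all genes from -0.01 to 0.19.

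Members, lists, tests and the 3 libraries left out were chosen with earlier results of these data known. Genes named in full were the 4 mature and 4 precursor members of smallest p and those of highest mean CPM, and any member called. Of each other list the 2 smallest p were named, and the 6 genes most like the mature sum. Adjustment of the correlations over all genes was added after seeing the data. A gene the rule takes is not reported here. Positions are mm9, and promoters come from RefSeq (GRCm38.p6).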

Additional observations from a re-analysis of the deposited data

Results flagged for a closer look

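Among 70 groups of 4 to 10 values examined, 7 held a highest value far from its group by Dixon's criterion. Chance gives about 1 in 20 for independent groups. These groups share the same mice and hold genes that vary together, so the 7 cannot be set against that rate. All 7 highest values belong to mouse 2 of either genotype. In BERKO mouse 2, Mbp stood at 8772 CPM and Opalin at 117 CPM, above the other 4 BERKO mice. In WT mouse 2, Cldn11 stood at 260 CPM, Ugt8a at 51.5 CPM, Ermn at 176 CPM and Ndrg1 at 468 CPM, above the other 5 WT mice. The mature sum of the left biopsy of BERKO mouse 2, 24314 CPM, stood above the 7645 to 10400 CPM of the other left BERKO biopsies.

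A region named for both Evi2a and Gm21975 held 360 reads that were counted for neither gene, against 12 reads on regions of Evi2a alone. It stood at 19.6 ± 7.16 CPM in WT (SD, n = 6) and 19.3 ± 9.34 CPM in BERKO (SD, n = 5), so Evi2a was measured only in part.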

How the results depend on the processing

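The count of members called was 0 under each alternative run except DESeq2 per mouse (1, Sox10, -1.80) and no filter on low counts in left biopsies (1, Cldn11, 1.26, edgeR adjusted p = 0.0054). Genes called per mouse were 7, and 14 with no filter, 34 by DESeq2, 45 with spike-in scaling, 1 with limma-voom and 1 to 18 leaving out 1 mouse. On the right they were 5, and 17 with no filter, 12 by DESeq2 and 0 to 6 leaving out 1 mouse. On the left they were 0, and 22, 3 and 0 to 1. For side they were 0, and 9, 23 and 0 to 3, with 3 without WT mice 1 and 2. Regions called were 15, and 139 with no filter, 96 by DESeq2 and 8 to 47 leaving out 1 mouse. With no replicate block, that is without pairing the sides of a mouse, side and interaction again called 0 members and 0 genes. The precursor median was -0.16 by limma-voom. Under spike-in scaling 26 of 27 mature genes were positive, with the median of all genes at 0.19. Correlation with Mbp adjusted over all genes passed for 7 members. Without the 3 WT libraries Cnp (-0.031), Mal (-0.11), Trf (-0.36) and Ptprz1 (0.0066) changed sign, Ptprz1 also under spike-in scaling (0.11). Leaving out 1 mouse, Trf ran from -0.23 to 0.31 and Ptprz1 from -0.17 to 0.013. The cause of these shifts was not tested. Depth limits the 11 members under 20 reads per mouse.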
